A study of Mus musculus with 60 samples.

Results

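The transcription factors that direct granulocyte and monocyte development were followed in the whole blood of mice given the radiation countermeasure BIO 300, with or without total body irradiation (TBI). The 9 genes were Spi1, Cebpa, Cebpb, Cebpd, Cebpe, Gfi1, Irf8, Klf4 and Id2. They were taken by name from a list of known regulators, and were 9 of the 49315 genes in the count tables. Each of the 9 genes passed the filter on low counts in every comparison.

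The blood came from 60 male CD2F1 mice, a hybrid strain, in 10 groups of 6. Mice were bought at 5 to 6 weeks of age and quarantined for 1 week. All groups were gavaged with BIO 300 Oral Powder, an amorphous solid dispersion of synthetic genistein, or with its vehicle of water, methylcellulose and povidone, 2 times a day for 6 days. The BIO 300 doses were 50, 100 or 200 mg/kg, which the labels name Low, Med and High. Blood was drawn on Day 0, when 24 h had passed since the final dose, from vehicle mice and from mice given 50, 100 or 200 mg/kg. Another set of these 4 groups was bled on Day 1, at 48 h. The remaining groups were vehicle mice and 200 mg/kg mice that received 9.2 Gy of cobalt-60 gamma rays on Day 0 and were bled 24 h later, also on Day 1. Each mouse gave 1 terminal bleed from the inferior vena cava, so no mouse was followed over time. Mice were housed 3 to a cage and irradiated 6 to a box, and the labels do not tie mice to cages or boxes.

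Granulocytes and monocytes arise from shared progenitors in the marrow, and a small set of transcription factors sets their fate. Spi1 encodes PU.1, an ETS factor needed for both lineages, and Cebpa encodes C/EBPα, which opens the granulocyte programme. Cebpb, Cebpd and Cebpe encode relatives that act in emergency granulopoiesis, in the acute-phase response and in the making of secondary granules. Gfi1 is a repressor that favours neutrophils, Irf8 and Klf4 favour monocytes, and Id2 encodes an inhibitor of helix-loop-helix factors. Several of these genes are also used outside the myeloid lineage: Irf8 in B cells and dendritic cells, Gfi1 and Id2 in lymphocytes, and Cebpa in liver and fat.

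The genes lie on the mouse GRCm38 build at the following places. Spi1 (ENSMUSG00000002111) is at chr2:91082390-91115756 on the plus strand. Cebpa (ENSMUSG00000034957) is at chr7:35119293-35121928, plus, Cebpb (ENSMUSG00000056501) at chr2:167688915-167690418, plus, and Cebpd (ENSMUSG00000071637) at chr16:15887286-15891031, plus. Cebpe (ENSMUSG00000052435) is at chr14:54710360-54712174, minus, and Gfi1 (ENSMUSG00000029275) at chr5:107716657-107726036, minus. Irf8 (ENSMUSG00000041515) is at chr8:120736358-120756694, plus, Klf4 (ENSMUSG00000003032) at chr4:55527143-55532466, minus, and Id2 (ENSMUSG00000020644) at chr12:25093799-25097140, minus. An annotated gene overlaps Cebpa, Cebpb, Cebpd and Gfi1 on the opposite strand and Irf8 on the same strand. The strand setting of the counting is not given in the sources used here, so reads of the opposite-strand partners cannot be told apart from those of these 4 genes.

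Promoters of 6 of the 9 genes, 8 in all, were found in RefSeq (GRCm38.p6), as windows from 250 bases before to 50 bases after the start site. Spi1, Cebpd and Cebpe were not among them. Both strands were searched for 3 motifs: a C/EBP motif (TTGCNNAA), the interferon-gamma activated sequence, GAS (TTCNNNGAA), and a PU.1 core (GAGGAA). Among 32851 mouse promoters of the same length, 10.8% held the C/EBP motif, 8.3% the GAS motif and 28.3% the PU.1 core. Irf8 and Gfi1 each had a second window, at a start site inside the gene, and the window of the first start site is shown because Irf8 and Gfi1 were the members called lower after TBI, and that of Cebpb because it was called higher. Capitals mark the motif matches, 5′ to 3′ on the strand of the gene.
Irf8, chr8:120736108-120736407, plus: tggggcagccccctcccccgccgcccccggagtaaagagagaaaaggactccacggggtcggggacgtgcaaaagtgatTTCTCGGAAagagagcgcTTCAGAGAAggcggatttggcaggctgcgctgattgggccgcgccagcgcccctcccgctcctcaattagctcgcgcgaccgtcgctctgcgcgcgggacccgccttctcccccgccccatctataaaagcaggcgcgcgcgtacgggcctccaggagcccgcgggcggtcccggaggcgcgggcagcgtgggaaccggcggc
Gfi1, chr5:107725756-107726055, minus: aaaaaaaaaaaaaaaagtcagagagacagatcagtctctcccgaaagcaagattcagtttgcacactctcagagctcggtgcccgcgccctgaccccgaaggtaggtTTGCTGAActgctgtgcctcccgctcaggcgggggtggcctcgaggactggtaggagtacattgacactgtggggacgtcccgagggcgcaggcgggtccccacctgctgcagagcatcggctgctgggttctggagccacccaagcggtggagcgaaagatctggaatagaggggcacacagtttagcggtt
Cebpb, chr2:167688665-167688964, plus: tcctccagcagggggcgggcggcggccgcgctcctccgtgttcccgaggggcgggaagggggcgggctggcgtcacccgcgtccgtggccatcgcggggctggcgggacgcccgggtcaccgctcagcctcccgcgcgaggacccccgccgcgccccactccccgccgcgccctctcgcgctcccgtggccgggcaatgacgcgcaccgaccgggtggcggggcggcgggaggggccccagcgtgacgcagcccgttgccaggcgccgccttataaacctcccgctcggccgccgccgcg
The Irf8 window above held 2 GAS matches, beginning at positions -171 and -153 from the start site, which do not overlap. The Gfi1 window above held 1 C/EBP match, beginning at -143. None of the 3 motifs was found in the second windows of Irf8 (chr8:120738389-120738688) and Gfi1 (chr5:107724294-107724593), in the Cebpb window above or in the windows of Cebpa, Klf4 and Id2. A match describes the letters in the window and was not tested for binding.

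Libraries held 15099415 to 45589415 counts, with a median of 24877993.5. Raw counts of the members ran from 3 to 163 per mouse for Gfi1 and from 14 to 217 for Cebpe, the least deeply covered pair, and from 275 to 4346 for Spi1. Levels are in CPM, the usual unit for a gene's counts relative to its library's total, after scaling by the trimmed mean of M values (TMM). Liver RNA differed between mice within groups: 10 of the 60 mice were over 100 CPM for Alb, the albumin gene of hepatocytes, and the highest values were 21977 CPM in mouse 51 (irradiated vehicle) and 7629 CPM in mouse 57 (irradiated, 200 mg/kg). Several comparisons are therefore also given without these 10 mice. In whole blood, fewer cells of a type and less RNA per cell cannot be told apart.

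Genes were set against each other per kilobase of exon, taken as the union of all annotated exons (7055 bases for Irf8, 2695 for Spi1). On that scale Spi1 was the highest member in vehicle mice on Day 1, with a mean of 16.5 CPM per kb. Cebpb followed at 14.8, Id2 at 14.2 and Irf8 at 12.4 CPM per kb. Before division by length the means were 87.3 CPM for Irf8 and 44.6 CPM for Spi1, so their order rests on the lengths used. Cebpa (7.35), Klf4 (4.95) and Cebpd (4.68 CPM per kb) formed a middle set, and Cebpe (1.45) and Gfi1 (0.599 CPM per kb) were lowest. In irradiated vehicle mice the order of means was Spi1 (46.4), Cebpb (42.9), Cebpa (31.9), Cebpd (31.1), Id2 (16.4), Klf4 (4.01), Cebpe (3.46), Irf8 (1.39) and Gfi1 (0.283 CPM per kb). The place of Cebpa rests on its mean of 84.0 CPM (SD 87.5), far above its median of 38.7 CPM. For Cebpd the mean was 117 CPM and the median 121 CPM. Irf8 thus stood above Cebpa, Cebpd, Klf4 and Cebpe in unirradiated vehicle mice on Day 1 and below all of them after TBI. In vehicle mice on Day 0 the mean of Cebpa (11.2) was above that of Irf8 (10.8 CPM per kb). Across the 10 groups, 6 of the 9 members had their highest group mean in an irradiated group, or 5 of 9 when libraries were scaled to total counts alone.

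**Figure D1:**
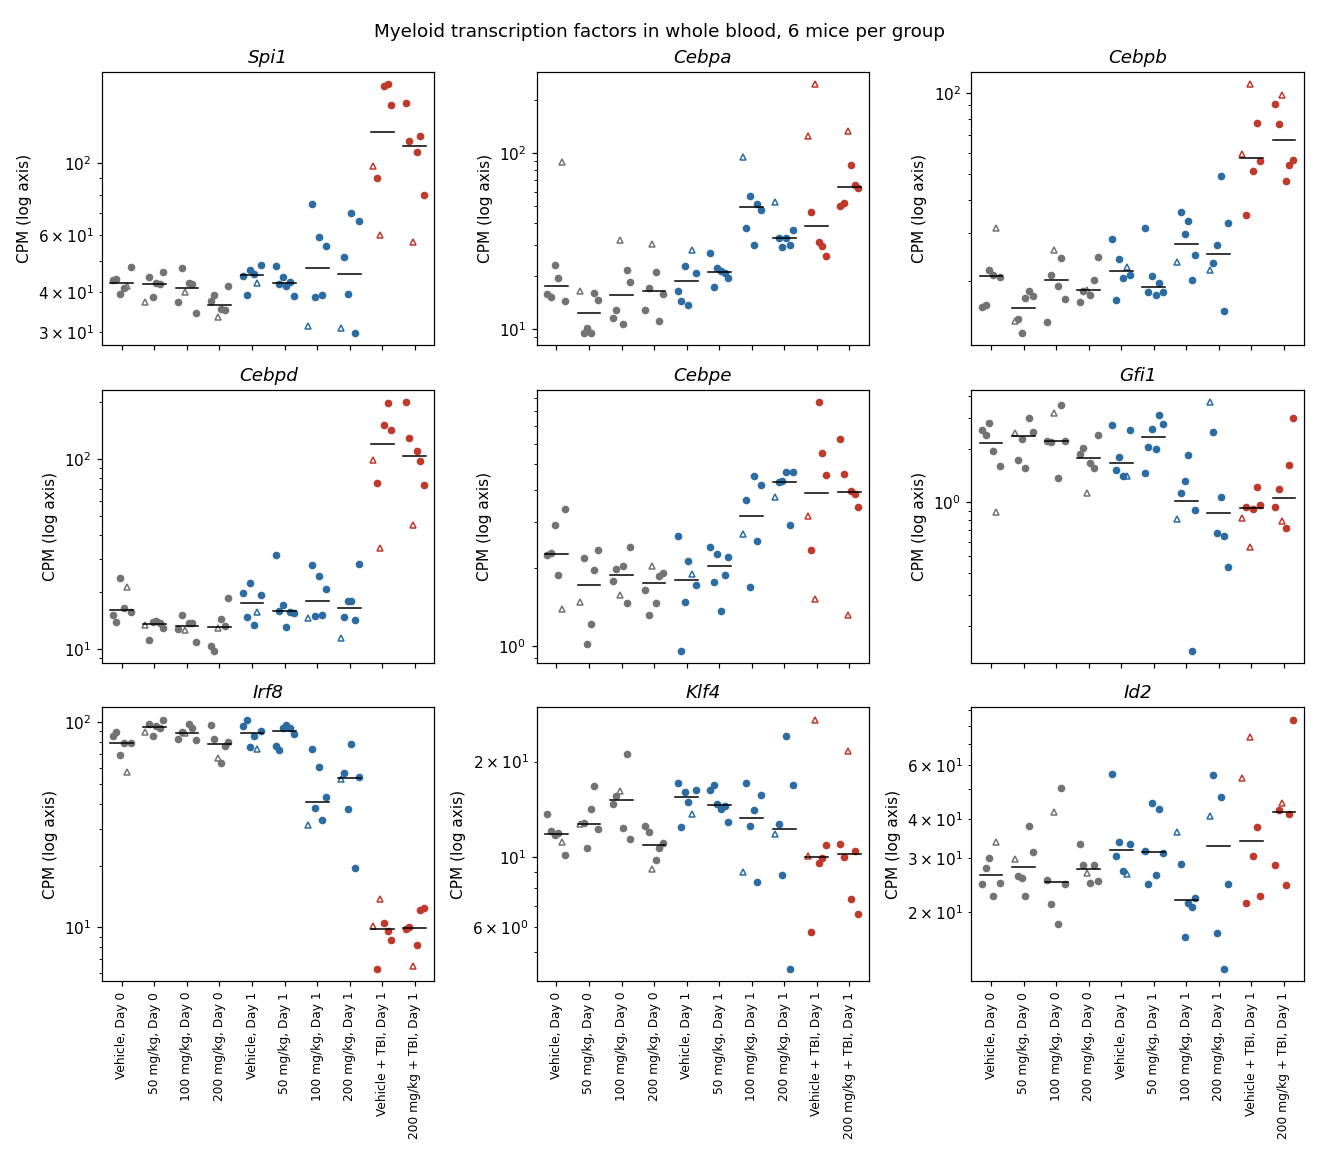
Level of each of the 9 genes in every mouse (TMM-scaled CPM, log axis) by group, with a bar at the median of the 6 mice and triangles for mice over 100 CPM Alb. The irradiated vehicle mice lie at 6.28 to 13.7 CPM for Irf8, below every unirradiated mouse, and at 34.1 to 197 CPM for Cebpd, above every unirradiated mouse.

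The comparison of irradiated with unirradiated vehicle mice on Day 1 asks what TBI alone did to these genes within 24 h. Of the 9 members, 5 rose (Spi1, Cebpa, Cebpb, Cebpd and Cebpe), 2 fell (Irf8 and Gfi1), and Klf4 and Id2 were not called. A gene was called when edgeR's quasi-likelihood test gave a Benjamini-Hochberg adjusted p under 0.05 over all genes and the log2 fold change was over 1 in size. By this rule 36.0% of the 25146 genes tested were called, 19.6% higher and 16.4% lower. The members' median log2 fold change was 1.24, against 0.09 for all genes tested.

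Irf8, which encodes a factor of monocytes, dendritic cells and B cells, showed the largest change among the members. Its lowest, median and highest levels were 73.6, 88.1 and 102 CPM in vehicle mice and 6.28, 9.81 and 13.7 CPM in irradiated vehicle mice. The groups did not overlap. Among all genes tested, 25.0% did not overlap, 14.9% lower and 10.1% higher. The log2 fold change was -3.18 (SE 0.18, adjusted p = 7.6e-07), and it stayed between -3.27 and -3.08 when any 1 of the 12 mice was left out. Gfi1, the repressor that favours neutrophils, was at 1.41, 1.66 and 2.74 CPM in vehicle mice and at 0.563, 0.928 and 1.21 CPM after TBI. These groups did not overlap either, and the log2 fold change was -1.10 (SE 0.26, adjusted p = 0.0042). The Gfi1 call lay close to the fold threshold: it was lost without the mice over 100 CPM Alb (-0.96, adjusted p = 0.0058) and without vehicle mouse 25 or irradiated mouse 51 (-0.97 in each).

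Cebpd, the C/EBP gene linked to the acute-phase response, rose the most. It was at 13.3, 17.5 and 22.4 CPM (lowest, median, highest) in vehicle mice and at 34.1, 121 and 197 CPM in irradiated vehicle mice. The groups did not overlap, although the irradiated mice spread widely. The log2 fold change was 2.71 (SE 0.36, adjusted p = 8.48e-05) and 3.01 without the mice over 100 CPM Alb. The lowest irradiated mouse, at 34.1 CPM, was mouse 51, which had the highest Alb.

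Spi1 and Cebpb also rose without overlap. Spi1, which encodes PU.1, was at 39.1, 45.2 and 48.4 CPM in vehicle mice and at 60.2, 125 and 176 CPM after TBI, a log2 fold change of 1.47 (SE 0.25, adjusted p = 0.000497). Cebpb, the emergency granulopoiesis gene, was at 17, 21.8 and 28.6 CPM and then at 35.2, 57.5 and 108 CPM, a log2 fold change of 1.5 (SE 0.24, adjusted p = 0.000265). Without the mice over 100 CPM Alb these changes were 1.75 for Spi1 and 1.33 for Cebpb, and both were called.

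Cebpa and Cebpe were called higher, but their groups overlapped. Cebpa was at 13.7, 18.7 and 28.0 CPM in vehicle mice and at 26.1, 38.7 and 245 CPM in irradiated vehicle mice, with a log2 fold change of 2.06 (SE 0.54, adjusted p = 0.0078). The irradiated mice were at 125, 46.3, 245, 31.0, 29.8 and 26.1 CPM (mice 49 to 54), and the highest pair, mice 49 and 51, were the ones over 100 CPM Alb. Without mouse 51 alone the Cebpa change was 1.39, and without all mice over that limit it was 0.94 (adjusted p = 0.000802), under the fold threshold. Cebpe, the gene of secondary granule production, was at 0.958, 1.80 and 2.66 CPM in vehicle mice and at 1.52, 3.86 and 8.67 CPM after TBI. Its log2 fold change was 1.24 (SE 0.40, adjusted p = 0.0231), or 1.61 without the mice over 100 CPM Alb. The call was lost when libraries were scaled to total counts (0.81, adjusted p = 0.119), without vehicle mouse 26 (1.12, adjusted p = 0.0504) and without irradiated mouse 52 (0.90, adjusted p = 0.0573).

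Klf4 and Id2 were not called after TBI. Klf4, a monocyte factor, was at 12.4, 15.5 and 17.1 CPM in vehicle mice and at 5.82, 10 and 27.1 CPM in irradiated vehicle mice, a log2 fold change of -0.34 (SE 0.29, adjusted p = 0.34). The mouse at 27.1 CPM was again mouse 51, and without the mice over 100 CPM Alb the difference was -0.73 (adjusted p = 0.00253), still under the fold threshold. Id2, which encodes the helix-loop-helix inhibitor, was at 26.6, 31.9 and 56 CPM and then at 21.5, 34.1 and 74 CPM, a log2 fold change of 0.18 (SE 0.30, adjusted p = 0.647).

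**Figure D2:**
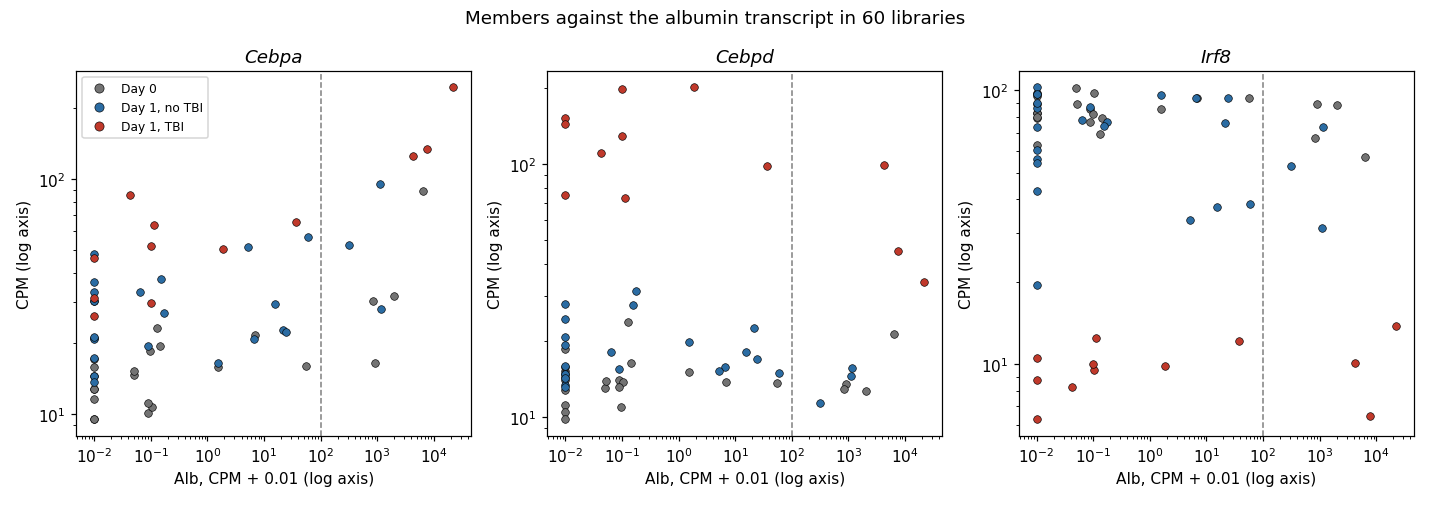
Cebpa, Cebpd and Irf8 levels (CPM) against Alb (CPM, log axis) in single mice, with a dashed line at 100 CPM Alb. In irradiated vehicle mice the highest Cebpa values, 125 and 245 CPM, are in mice to the right of the line, while the 6 Irf8 values, on either side of it, are between 6.28 and 13.7 CPM.

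Day 0 vehicle mice gave another set of unirradiated controls, though the same irradiated mice enter both comparisons. Against them Cebpd (2.84), Cebpb (1.66) and Spi1 (1.65) rose, and Irf8 (-2.90) and Gfi1 (-1.07) fell, on the log2 scale. By the same rule 26.9% of 24751 genes were called. Cebpa (1.5, adjusted p = 0.0839) and Cebpe (0.99, adjusted p = 0.0744) were not called in this fit. Of the members, 4 were called higher and 2 lower by DESeq2, by a single fit over all 60 mice and without the mice over 100 CPM Alb. The shares of all genes called were then 26.9%, 26.4% and 41.1%. Vehicle mouse 17, at 88.8 CPM Cebpa against 14.4 to 23.2 CPM in the other Day 0 vehicle mice, had 6320 CPM Alb.

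Ratios of raw counts within 1 library need no scaling between libraries, and such ratios were set up after the levels had been seen. The Cebpd to Irf8 ratio was 0.144, 0.21 and 0.295 (lowest, median, highest) in vehicle mice on Day 1 and 2.48, 13.2 and 20.7 in irradiated vehicle mice. Thus Irf8 counts outnumbered Cebpd counts in every vehicle mouse and Cebpd counts outnumbered Irf8 counts in every irradiated mouse. The Irf8 to Spi1 ratio was 1.62, 1.88 and 2.62 in vehicle mice and 0.054, 0.065 and 0.229 after TBI. By contrast, the Cebpe to Spi1 ratio overlapped, at 0.025, 0.040 and 0.059 and then 0.025, 0.031 and 0.050. Relative to the mean of all 9 members within each library, on a log2 scale, 4 members separated the groups without overlap: Cebpd (2.16) and Cebpb (1.07) were higher, and Irf8 (-3.57) and Gfi1 (-1.43) lower. On the same ratio, 5.37% of all genes were higher and 19.1% lower without overlap (24.5% in all).

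**Figure D3:**
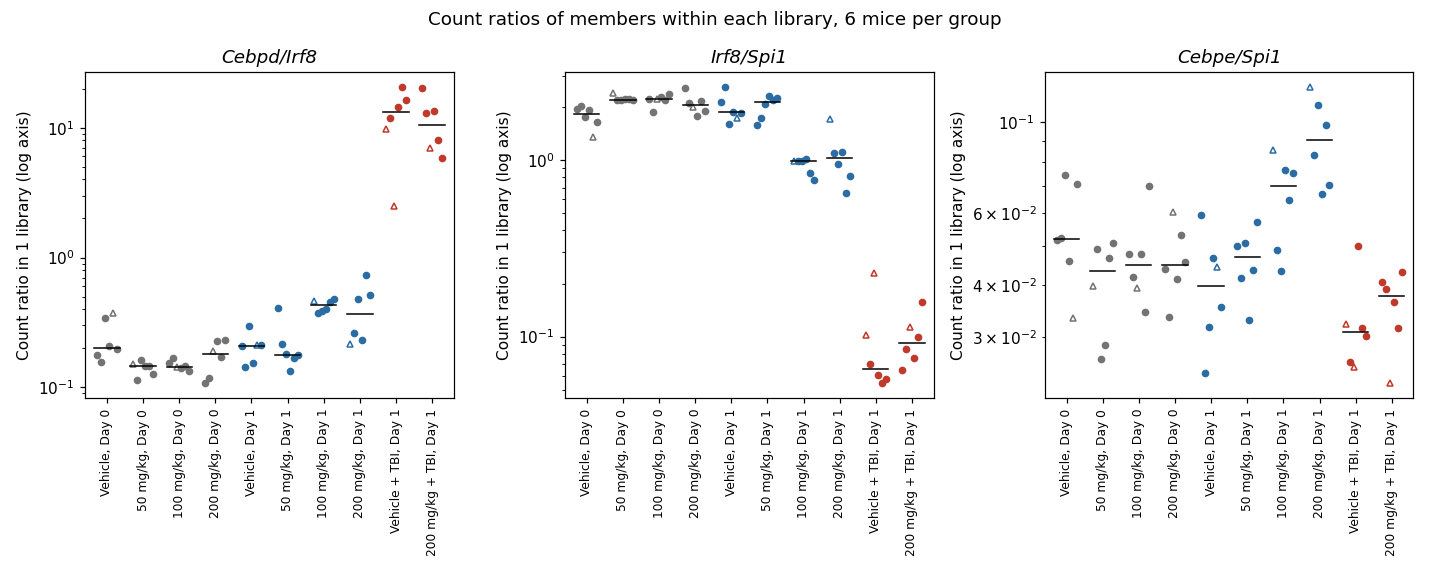
Ratios of raw counts within each library (log axis) for Cebpd to Irf8, Irf8 to Spi1 and Cebpe to Spi1, by mouse and group. The Cebpd to Irf8 ratio lies at 0.144 to 0.295 in vehicle mice on Day 1 and at 2.48 to 20.7 in irradiated vehicle mice.

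Genes of other steps of the myeloid programme were counted in the same comparison, against the 36.0% of all genes called. Of 32 other myeloid regulators, 10 rose and 4 fell, with a median log2 fold change of 0.52. Gfi1b, a paralogue of Gfi1 active in megakaryocytes and erythroid cells, rose by 2.95, and Irf4, a factor of activated lymphocytes, fell by 2.78. Of 15 granule and neutrophil genes tested, 10 rose and 1 fell (median 2.65), among them Lcn2 (3.98), which encodes the iron-carrier-binding granule protein lipocalin 2, and Il1r2 (3.65), a decoy receptor for interleukin 1. Of 16 monocyte genes, 5 rose and 4 fell, with a median of -0.48. Cd14, the co-receptor for lipopolysaccharide, rose by 2.99, while Ms4a4c fell by 3.37. Of 6 dendritic cell markers, 2 rose, including Xcr1 (2.05), and 4 fell, including Ccr9 (-2.74).

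Markers of other blood cells moved in the same mice as Irf8 and Gfi1. All 8 B cell markers fell (median -3.49), with Fcer2a at -5.12 and Cd79a at -3.88. Their summed level was 931 to 1429 CPM in vehicle mice and 56.4 to 159 CPM after TBI, and none of the 8 was at 0 in either group. Of 8 T cell markers 7 fell (median -2.38), including Cd8b1 (-6.57) and Cd8a (-5.48), and their sum went from 309 to 393 CPM in vehicle mice to 31.6 to 136 CPM. Of 8 NK cell markers 6 fell, including Klrd1 (-1.82) and Gzma (-1.18), and 3 of 7 eosinophil and basophil markers fell. All 7 platelet markers rose, including Itga2b (2.78) and Gp1bb (2.63), and none of the 4 haemoglobin genes was called. The part of these markers' cells in the Irf8 and Gfi1 changes was not tested.

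Hepatocyte and adipocyte markers bear on Cebpa, which both tissues use. The 16 hepatocyte markers summed to 2.80 to 2146 CPM in vehicle mice (median 5.51, up to 12 of the 16 at 0 in a mouse) and to 7.99 to 40565 CPM after TBI (median 9.37, up to 10 at 0). Of these, 1 was called higher, Trf (4.53), which encodes transferrin, and without the mice over 100 CPM Alb its change was 0.53. Of 8 adipocyte markers, 3 were called higher.

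The comparison of both irradiated groups asks whether 200 mg/kg BIO 300 before TBI altered the response. None of the 9 members was called by edgeR, and none of 24916 genes tested, so the share called was 0%. With edgeR, 688 of these 24916 genes had an unadjusted p under 0.05, and the smallest adjusted p was 0.9999. DESeq2 also called 0. A single fit over all 60 mice called 179 genes higher and 11 lower with 200 mg/kg, none of them a member. Irf8 was at 6.28, 9.81 and 13.7 CPM (lowest, median, highest) in irradiated vehicle mice and at 6.44, 9.94 and 12.5 CPM in irradiated mice given 200 mg/kg. Its log2 difference was -0.06, with a 95% interval of -0.52 to 0.40. The intervals of the other members were wider: -0.91 to 0.35 for Spi1, -0.53 to 0.71 for Cebpb, -1.02 to 0.74 for Cebpd and -0.25 to 1.32 for Gfi1. That of Cebpa, -1.46 to 1.02, was the widest of the 9. Each of these intervals includes 0, and their width leaves room for differences in either direction.

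Within mice given 200 mg/kg, TBI was compared with no TBI on Day 1. Of the 9 members, 4 rose and 1 fell, against 14.9% of 23610 genes called higher and 5.73% called lower (20.6% in all). Cebpd was at 11.4, 16.4 and 27.9 CPM without TBI and at 45.2, 104 and 200 CPM with it, a log2 fold change of 2.59 (SE 0.34, adjusted p = 0.000168). Irf8 was at 19.4, 53.5 and 78.2 CPM and then at 6.44, 9.94 and 12.5 CPM, a log2 fold change of -2.38 (SE 0.28, adjusted p = 8.24e-05). Neither gene overlapped between the groups, as held for 10.9% of all genes in the higher and 6.17% in the lower direction (17.1% in all). Cebpb (1.27, adjusted p = 0.00398), Spi1 (1.09, adjusted p = 0.0101) and Cebpa (1.01, adjusted p = 0.00663) rose with overlap. The Cebpa and Spi1 calls lay near the fold threshold. Cebpa was lost without the mice over 100 CPM Alb (0.89) and without irradiated mouse 57 (0.90) or 58 (0.97). Spi1 was lost without unirradiated mouse 43 (0.98) or irradiated mouse 55 (0.95). With any 1 mouse left out, the change was 0.90 to 1.21 for Cebpa and 0.95 to 1.37 for Spi1.

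**Figure D4:**
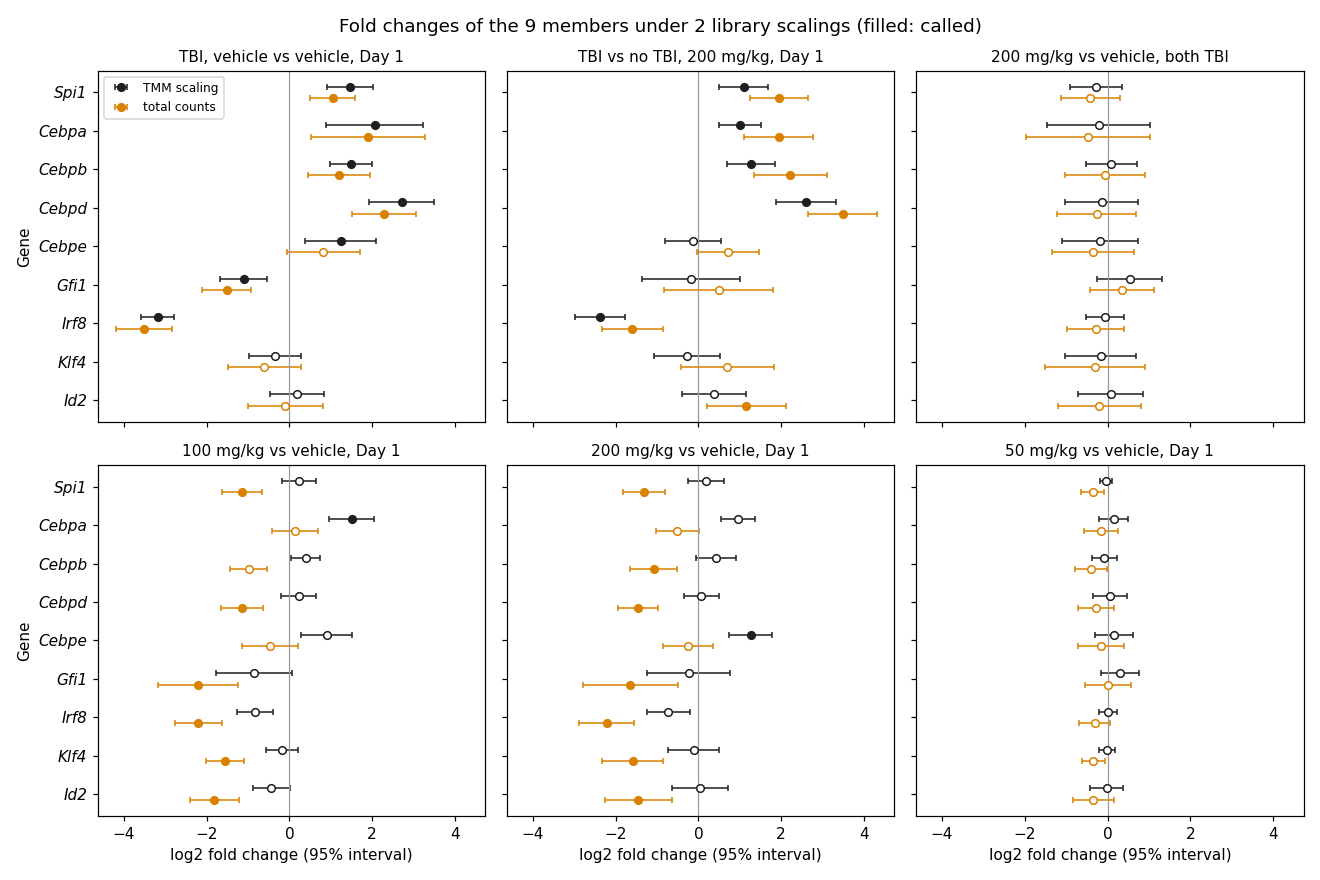
Log2 fold changes of the 9 genes with 95% intervals in 6 comparisons, with TMM scaling in black and scaling to total counts in orange, and filled points for called genes. Cebpd and Irf8 lie at 2.71 and -3.18 for TBI in vehicle mice and at 2.59 and -2.38 for TBI in 200 mg/kg mice, and the 2 scalings part for BIO 300 on Day 1.

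The comparisons of BIO 300 with vehicle on Day 1 ask what the drug did without radiation. They share the 6 vehicle mice. At 200 mg/kg, 1 of the 9 members was called, Cebpe, and at 100 mg/kg 1 was called, Cebpa, both higher. Of all genes tested 47.8% were called at 200 mg/kg (17.3% higher, 30.5% lower) and 48.8% at 100 mg/kg (18.2% higher, 30.6% lower). These values depend on the scaling. When libraries were scaled to their totals alone, the log2 median over all genes shifted by -1.48 at 200 mg/kg and by -1.38 at 100 mg/kg, and then 7 and 6 members were called, all lower. With that scaling 65.5% and 62.2% of all genes were called lower, so the members' share was near the background. Changes are therefore also given relative to the median of all genes.

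Cebpe, the secondary granule gene, was at 0.958, 1.80 and 2.66 CPM in vehicle mice, at 1.68, 3.17 and 4.52 CPM at 100 mg/kg and at 2.93, 4.29 and 4.69 CPM at 200 mg/kg. The 200 mg/kg mice did not overlap the vehicle mice, which held for 45.8% of all genes (17.4% higher, 28.3% lower). The log2 fold change was 1.26 at 200 mg/kg (SE 0.24, adjusted p = 0.000448) and 0.90 at 100 mg/kg (SE 0.29, adjusted p = 0.014). At 100 mg/kg it was called without vehicle mouse 25 (1.04) or treated mouse 39 (1.03). With total counts the values were -0.25 and -0.47. Relative to the median of all genes they were 1.74 and 1.28 with TMM, and 1.71 and 1.28 with total counts.

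Cebpa showed a like pattern, with the higher value at 100 mg/kg. It was at 13.7, 18.7 and 28.0 CPM in vehicle mice, at 30.2, 49.5 and 95.5 CPM at 100 mg/kg and at 29.4, 32.9 and 52.5 CPM at 200 mg/kg. Neither dose group overlapped the vehicle group, and at 100 mg/kg 46.2% of all genes did not (17.9% higher, 28.3% lower). The log2 fold change was 1.51 at 100 mg/kg (SE 0.25, adjusted p = 0.00014) and 0.96 at 200 mg/kg (SE 0.19, adjusted p = 0.000595), just under the fold threshold. At 200 mg/kg it was called without vehicle mouse 27 (1.01) or 29 (1.10) and without treated mouse 45 (1.01) or 47 (1.01). With total counts the changes were 0.13 and -0.52, and relative to the median of all genes 1.89 and 1.44 under TMM. The highest mice, 37 at 100 mg/kg and 43 at 200 mg/kg, were both over 100 CPM Alb, and without them the changes were 1.26 and 0.82. Hepatocyte markers summed to 3.89 to 4840 CPM at 100 mg/kg and to 1.52 to 1437 CPM at 200 mg/kg, and none of the 16 was called at either dose. Adipocyte markers summed to 3.36 to 146 CPM in vehicle mice (median 27.7). Their sums were 14.1 to 664 CPM at 100 mg/kg (median 168) and 3.58 to 264 CPM at 200 mg/kg (median 26.1). The part of these tissues in the Cebpa values was not tested.

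Irf8 passed the test on adjusted p at both doses, with lower levels, but not the fold threshold with TMM. An adjusted p under 0.05 was reached by 63.5% of all genes at 200 mg/kg and by 65.6% at 100 mg/kg. Its levels were 31.3, 40.6 and 73.8 CPM at 100 mg/kg and 19.4, 53.5 and 78.2 CPM at 200 mg/kg, against 73.6, 88.1 and 102 CPM in vehicle mice. The log2 fold change was -0.83 (SE 0.21, adjusted p = 0.00303) and -0.73 (SE 0.24, adjusted p = 0.0164). Relative to the median of all genes it was -0.45 and -0.25. The count ratio of Irf8 to Spi1 was 0.775, 0.989 and 1.02 at 100 mg/kg, below every vehicle mouse (1.62, 1.88 and 2.62), and 0.651, 1.03 and 1.71 at 200 mg/kg. Within libraries, Irf8 relative to the mean of the 9 members was lower without overlap at both doses, with differences of -0.96 and -0.95 on the log2 scale, as were 22.2% and 24.6% of all genes on that ratio. With TMM, Irf8 was called at 100 mg/kg without mouse 38 (-1.03).

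Of the other members, Cebpb was at 0.40 (adjusted p = 0.0457) on the log2 scale at 100 mg/kg and at 0.42 (adjusted p = 0.117) at 200 mg/kg. Gfi1 was at -0.85 (adjusted p = 0.0913) at 100 mg/kg, and without mouse 40 it was called (-1.12, adjusted p = 0.0343). Spi1, Cebpd, Klf4 and Id2, and Gfi1 in the fits over all 12 mice, had adjusted p-values above 0.05 at both doses with TMM. The spread of Spi1 was wider in treated mice, at 31.4 to 74.8 CPM for 100 mg/kg and 29.8 to 70.3 CPM for 200 mg/kg against 39.1 to 48.4 CPM in vehicle mice. Klf4 ranged from 4.45 to 24 CPM at 200 mg/kg and from 12.4 to 17.1 CPM in vehicle mice.

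With TMM, the wider myeloid lists gave few calls in the same comparisons, against 47.8% of all genes at 200 mg/kg and 48.8% at 100 mg/kg. These counts depend on the scaling. With total counts, the 32 other regulators summed to 744 to 1195 CPM at 200 mg/kg, against 2040 to 2660 CPM in vehicle mice. The granule and neutrophil genes then summed to 269 to 546 CPM, against 615 to 1088 CPM. Of the 32 other regulators, 4 rose and 2 fell at 200 mg/kg, and 4 rose and 4 fell at 100 mg/kg. The leading genes were Gfi1b (2.75 at 200 mg/kg, 2.85 at 100 mg/kg) and Gata2 (2.46 and 2.45), regulators of megakaryocytes, erythroid cells and mast cells. With total counts the changes were 1.18 and 1.44 for Gfi1b and 0.91 and 1.04 for Gata2. Of 15 granule and neutrophil genes, 1 fell at 200 mg/kg, and at 100 mg/kg 2 rose, the calprotectin genes S100a8 (1.32) and S100a9 (1.20), which were at -0.10 and -0.22 with total counts. Among 16 monocyte genes, F13a1, which encodes a clotting factor subunit also made in platelets, rose (2.70 and 2.58), and 3 genes at 200 mg/kg and 5 at 100 mg/kg fell, Ms4a4c among them (-1.60 and -1.77). F13a1 was at 1.16 and 1.17 with total counts, and Ms4a4c at -3.06 and -3.17. Xcr1 and Clec9a, markers of cross-presenting dendritic cells, rose at 200 mg/kg by 2.64 and 1.84, while 3 of the 6 dendritic cell markers fell. With total counts Xcr1 was at 1.08 and Clec9a at 0.27.

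Markers of other cells moved here too. All 8 B cell markers fell at both doses, and their sum was 252 to 622 CPM at 100 mg/kg and 146 to 497 CPM at 200 mg/kg, against 931 to 1429 CPM in vehicle mice, with none of the 8 at 0. At both doses 7 of 8 T cell markers fell, and their sum was 101 to 171 CPM and 88.4 to 202 CPM against 309 to 393 CPM. All 7 platelet markers and all 4 haemoglobin genes rose at both doses with TMM, and 2 of the 4 haemoglobin genes with total counts. The haemoglobin genes summed to 58265 to 82925 CPM in vehicle mice, 219157 to 464235 CPM at 100 mg/kg and 167825 to 429539 CPM at 200 mg/kg. The part of these cells in the member differences was not tested.

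Doses were also compared with each other on Day 1. Between 200 and 100 mg/kg edgeR called 0% of 19942 genes and no member. Cebpa differed by -0.56 on the log2 scale (95% interval -1.11 to -0.01, adjusted p = 0.999). Between 100 and 50 mg/kg, 46.3% of 23011 genes were called (19.7% higher, 26.6% lower), and among the members Cebpa rose (1.38, adjusted p = 0.000106) and Gfi1 fell (-1.16, adjusted p = 0.0207). Gfi1 was at 1.46, 2.33 and 3.13 CPM at 50 mg/kg and at 0.146, 1.01 and 1.85 CPM at 100 mg/kg, groups that overlap. With total counts Cebpa was at 0.29 and not called, Gfi1 was at -2.22, and the median of all genes shifted by -1.07. Relative to that median the TMM values were 1.65 for Cebpa and -0.89 for Gfi1. Irf8 was at -0.84 (adjusted p = 0.00166), under the fold threshold.

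At 50 mg/kg on Day 1 edgeR called no member and none of 24118 genes (0%), and the members' log2 fold changes were at most 0.30 in size. DESeq2 called 27 genes higher and 12 lower (0.162%), none of them a member. Irf8 was at 73.5, 90.3 and 97.2 CPM against 73.6, 88.1 and 102 CPM in vehicle mice, a difference of 0.00 with a 95% interval of -0.21 to 0.22. For Cebpa the interval was -0.20 to 0.50 and for Gfi1 -0.17 to 0.77. Mouse 31 of this group stood apart in Cebpb (31.5 CPM) and Cebpd (31.4 CPM).

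On Day 0 edgeR called no member at any dose, and DESeq2 called 1, Cebpa at 50 mg/kg (-1.25, adjusted p = 0.0415). The share of all genes called was 0% at 200 mg/kg, 0% at 100 mg/kg and 4.50% at 50 mg/kg (0.127% higher, 4.38% lower). At 50 mg/kg, Cebpa was at 9.49, 12.4 and 16.5 CPM against 14.4, 17.7 and 88.8 CPM in vehicle mice, a log2 difference of -1.19 (adjusted p = 0.0877). Without the mice over 100 CPM Alb, vehicle mouse 17 among them, it was -0.54. Irf8 was at 85.2, 94.5 and 102 CPM at 50 mg/kg and at 57, 79.2 and 89.3 CPM in vehicle mice (0.31, adjusted p = 0.056). Between vehicle mice on Day 1 and Day 0 edgeR called no member and no gene (0%), and Klf4 had the smallest adjusted p among members (0.35, adjusted p = 0.204). There DESeq2 called 1 gene higher and 36 lower (0.152%), none of them a member.

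Whether the effect of a dose differed between the days was tested as an interaction over 24 mice. For 200 mg/kg, 36.7% of 25702 genes were called, and 2 members, with Cebpe (1.73, adjusted p = 0.000108) and Cebpa (1.66, adjusted p = 0.00951) higher against vehicle on Day 1 than on Day 0. For 100 mg/kg, 42.0% of 25908 genes were called, and 3 members: Cebpa (2.22, adjusted p = 0.00197) and Cebpe (1.22, adjusted p = 0.00697) higher, and Irf8 (-1.07, adjusted p = 0.000561) lower. The Irf8 call for 100 mg/kg was lost with edgeR's filterByExpr filter and without the mice over 100 CPM Alb. Each of these fits called 2 members, both higher, against 50.4% and 39.4% of all genes. For 50 mg/kg, 7.69% of 26323 genes and no member were called. These calls depend on the scaling. With total counts, Cebpe and Cebpa were at 0.44 and 0.38 for 200 mg/kg and at -0.18 and 0.55 for 100 mg/kg, none of them called, while Irf8 was called lower at both doses (-2.02 and -2.51). The median of all genes with TMM was -0.35 for 200 mg/kg and -0.37 for 100 mg/kg, and with total counts -1.58 and -1.83. Vehicle mouse 17, with its high Cebpa on Day 0, enters each of the Cebpa values.

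The interaction of 200 mg/kg with TBI tests whether TBI had a different effect in treated mice. Of 26875 genes 29.6% were called, and 0 of the 9 members. The Irf8 effect was smaller in treated than in vehicle mice (difference of log2 effects 0.89, 95% interval 0.20 to 1.58, adjusted p = 0.0414), under the fold threshold. The median over all genes was 0.60 for this interaction, and relative to it Irf8 was at 0.29. With total counts the Irf8 value was 1.93, against a median of 1.68, and Irf8 and Gfi1 were called, as were 45.4% of all genes. The effects were -3.18 in vehicle mice and -2.38 in 200 mg/kg mice, whose unirradiated medians were 88.1 and 53.5 CPM and irradiated medians 9.81 and 9.94 CPM. Cebpe had a difference of -1.23 (adjusted p = 0.0541), with its unirradiated level higher at 200 mg/kg (median 4.29 against 1.80 CPM). Without the mice over 100 CPM Alb, 3 members were called, Irf8 (1.23), Gfi1 (1.55) and Cebpe (-1.39), against 41.8% of all genes. In that fit 28.5% of all genes were called higher and 13.3% lower, and the median over all genes was 0.77.

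The genes most like each member across the 60 mice were named by Pearson's r of log2 CPM, as a description over mice that share groups and libraries. Irf8 was nearest to Hvcn1 (0.98), Ighd (0.97) and Tnfrsf13b (0.97), of which Ighd encodes the heavy chain of IgD. Spi1 was nearest to Fgr (0.98), Myd88 (0.97) and Rgs2 (0.97), and Cebpd to Cd300lb (0.99), Gcnt2 (0.98) and Jaml (0.98). For Cebpa they were 4931406C07Rik (0.96), Fmo5 (0.94) and Trp53inp2 (0.94), and for Cebpb Rab32 (0.92), Cdkn1a (0.91) and Adssl1 (0.91). Cebpe was nearest to Retnlg (0.91), Gapt (0.89) and Unc119 (0.86), and Gfi1 to Ctsw (0.84), Zap70 (0.81) and Sytl2 (0.80), of which Zap70 encodes a T cell receptor kinase. Klf4 was nearest to Arhgef10l (0.82), Ifi202b (0.82) and Gas7 (0.81), and Id2 to Sulf2 (0.71), Bst2 (0.68) and Xbp1 (0.66), the weakest likeness of the 9. With total counts, 13 of these 27 genes were again among the nearest 3. Between members, r was 0.95 for Spi1 with Cebpd, and for Cebpd with Irf8 it was -0.86 with TMM and -0.41 with total counts.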

How the data were processed

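Whole-blood RNA was sequenced from 60 mice, and the authors deposited integer counts per gene. Per the labels and the study's methods, trimming was by Trimmomatic 0.36, alignment to GRCm38 by STAR 2.5.2b and counting of unique hits per gene by Subread 1.5.2. The labels name poly(A) selection and the study's methods name stranded total RNA with ribosomal and globin depletion. The deposited tables of comparisons also hold the authors' fold changes and p-values, which were not used, and gene names, which were. Of 120 mapped count columns, 60 repeat a mouse with identical values and were counted once. Of 49315 genes, 18516 were named by the files, 30480 by the reference only and 319 by neither.

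Pairwise fits used edgeR 4.0.16 in R 4.3.3 (TMM, quasi-likelihood test, genes with at least 10 counts summed over the mice compared), with Benjamini-Hochberg adjustment over all genes. Interactions were fitted over 24 mice. Intervals are 95%. A gene was called at an adjusted p under 0.05 and a log2 fold change over 1 in size. Alternatives were total-count scaling, DESeq2 1.42.0, other filters, 1 fit of 60 mice, leaving out each mouse and leaving out mice over 100 CPM Alb. Scripts were tested on simulated data. Labels say that each sample is a separate mouse.

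The members and the 12 gene lists (136 of 137 genes found) were chosen with earlier results of these data known. The text names the 9 members, the 2 called genes of each list with the largest change and at least 10 CPM in 1 group, and the 3 genes most like each member among those of at least 5 CPM. Within-library ratios to the mean of the 9 members add 0.5 to each count, and the ratios of pairs of members were chosen after seeing the data.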

Additional observations from a re-analysis of the deposited data

Results flagged for a closer look

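Of 90 sets of 6 mice (9 genes in 10 groups), 9 held a mouse whose gap to its nearest neighbour, as a share of the group's range, was over Dixon's 95% critical value for 6 samples. For independent sets of normally distributed values, chance flags about 1 in 20. Here the same mice enter for all 9 genes and CPM were used without a log. The 9 of 90 can therefore not be set against that rate. For Cebpa these were vehicle mouse 17 on Day 0 (gap 0.882 of the range, 88.8 CPM) and 200 mg/kg mouse 43 on Day 1 (0.691, 52.5 CPM), both over 100 CPM Alb. In the 50 mg/kg group on Day 1, mouse 31 was highest for Cebpb (0.770, 31.5 CPM) and Cebpd (0.788, 31.4 CPM), and in the 50 mg/kg group on Day 0 mouse 2 was lowest for Cebpd (0.634, 11.2 CPM). For Klf4 they were irradiated vehicle mouse 51 (0.761, 27.1 CPM) and irradiated 200 mg/kg mouse 57 (0.709, 21.6 CPM), the mice with the highest Alb. For Id2 they were vehicle mouse 25 on Day 1 (0.753, 56 CPM) and irradiated 200 mg/kg mouse 60 (0.655, 83.8 CPM).

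Effects differed between conditions by the interaction test of edgeR at an adjusted p under 0.05 for 9 of 36 gene and contrast pairs. In the same contrasts the share of all genes at that level was 33.9% for 200 mg/kg with TBI, and 48.8% (200 mg/kg), 54.2% (100 mg/kg) and 17.5% (50 mg/kg) for the doses by day. The effect of TBI on Irf8 differed by 0.89 (log2) between 200 mg/kg and vehicle mice. The effect of 200 mg/kg differed between Day 1 and Day 0 for Cebpa (1.66), Cebpe (1.73) and Irf8 (-0.76). The effect of 100 mg/kg differed between the days for Cebpa (2.22), Cebpd (0.64), Cebpe (1.22), Irf8 (-1.07) and Klf4 (-0.55).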

How the results depend on the processing

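No paired analysis was possible because each animal number belongs to 1 mouse and the groups share none. Scaling to total counts changed the number of members called from 1 to 7 for 200 mg/kg and from 1 to 6 for 100 mg/kg on Day 1, from 2 to 4 for 100 against 50 mg/kg, from 0 to 2 for the interaction of 200 mg/kg with TBI, and from 3 to 6 (100 mg/kg) and 0 to 3 (50 mg/kg) for the interactions with day. For 200 mg/kg by day it called Irf8, Klf4 and Id2 in place of Cebpa and Cebpe. Under that scaling the share of all genes called was 68.6%, 66.3%, 59.8%, 45.4%, 59.9%, 40.2% and 54.9%, in that order. Signs were compared only for members with an adjusted p under 0.05 with TMM and for the named list genes, so other members are not listed here. Among those compared, scaling to total counts reversed Cebpa (-0.52) and Cebpe (-0.25) at 200 mg/kg, and Cebpb (-0.99) and Cebpe (-0.47) at 100 mg/kg. It also reversed Cebpb (-0.58) and Cebpe (-0.32) for 100 against 50 mg/kg, and Cebpd (-0.87) and Cebpe (-0.18) for 100 mg/kg by day. The list genes S100a8 (-0.10) and S100a9 (-0.22) were reversed at 100 mg/kg. Likeness kept 13 of 27 genes. DESeq2 called 2 members for 200 mg/kg on Day 1, 1 for 50 mg/kg on Day 0, 1 for 200 mg/kg with TBI, 1 for 200 mg/kg by day and 1 for 50 mg/kg by day, with 45.2%, 5.52%, 29.0%, 35.0% and 8.10% of all genes called. It gave no adjusted p for Cebpa in 200 mg/kg by day. edgeR's filterByExpr gave 2 for 200 mg/kg on Day 1, 1 for 200 mg/kg with TBI and 1 for 50 mg/kg by day, with 50.2%, 40.2% and 11.2% of all genes called. Without the mice over 100 CPM Alb, 3 were called for 200 mg/kg with TBI (41.8% of all genes). For 100 mg/kg by day, that fit and filterByExpr each called 2 members (39.4% and 50.4% of all genes), without Irf8. The cause was not tested. Leaving out any 1 mouse gave 6 to 7 members called for TBI in vehicle mice, 4 to 5 for TBI in 200 mg/kg mice, and 1 to 2 for 200 and for 100 mg/kg on Day 1. It gave 0 to 0 for 50 mg/kg on Day 0 and for the comparison of irradiated groups. Counting depth limits Gfi1 (down to 3 counts in a mouse) and Cebpe (down to 14) most.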
